A study of Ovis aries with 7 samples.

Results

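MOGAT1 (ENSOARG00000020354), MBOAT2 (ENSOARG00000014789) and LIPG (ENSOARG00000004007) are 3 genes of lipid metabolism that the study of these tail fat libraries named among its differentially expressed genes. Since the study chose them on the same libraries, their direction here is not independent evidence. Their values were taken by position, from every row of the 7 deposited gene tables whose locus overlapped the annotated gene. MOGAT1 lies on chromosome 2 at 223855234-223871560, MBOAT2 on chromosome 3 at 18219936-18275414 and LIPG on chromosome 23 at 49374831-49399731, in the coordinates of the tables, for which the labels name Oar_v3.1. The search gave 28 rows, which held 1 row of gene size per gene and library and, within MOGAT1, a short reference feature of 89 bases that was listed at 0 in all 7 libraries. Other loci, 22094 in all, could be matched by position over the libraries. The 3 genes were tested together with those of them that had a mean FPKM of at least 1, which made 8175 loci with the 3 genes included.

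The libraries were poly(A)-enriched RNA of tail fat from 7 male lambs of local Iranian sheep breeds, 4 of the thin-tailed Zel breed and 3 of the fat-tailed Ghezel breed, with 1 library per lamb. Lambs of both breeds were 7 months old, had been weaned at 90 days and had received no treatment. Feeding was alike for both breeds over 120 days, each lamb having a pen and as much feed as it would eat. The comparison asks which transcripts differ between a breed that stores much fat in the tail and a breed that stores little. Breed is the only factor the labels give, and whole tail fat was sequenced, so that fewer cells of a type and less RNA per cell cannot be told apart.

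Triacylglycerol, the storage fat of adipocytes, is built by adding fatty acids to a glycerol backbone step by step. MOGAT1 encodes monoacylglycerol O-acyltransferase 1, an enzyme that joins a fatty acid to monoacylglycerol to give diacylglycerol, the direct precursor of triacylglycerol. MBOAT2 encodes a membrane-bound O-acyltransferase that puts fatty acids back onto lysophospholipids, the remodelling of membrane lipids known as the Lands cycle. LIPG encodes endothelial lipase, which is secreted at the vessel wall and releases fatty acids chiefly from the phospholipids of high-density lipoproteins.

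The tables give FPKM, the fragments of a gene normalized for transcript length and for the mapped fragments of the library, with a confidence interval of 2 standard deviations to either side, and the width of that interval implies a number of fragments behind each value. The implied fragments came to between 7308112 and 7827375 per library and are a lower bound of depth. Assembled rows were shorter in Zel 3, Zel 4 and Ghezel 3, with median spans of 963, 1409 and 3641 bases, than in the other 4 libraries, with 5400 to 8935 bases. In FPKM, the same 3 libraries held the 3 lowest levels of LIPG and the 3 lowest levels of MBOAT2, and for MOGAT1 the lowest levels of each breed. For MBOAT2 this rested on 3.936 FPKM in Zel 4 against 3.953 in Zel 2. In implied fragments Zel 4 was the higher of these, with 301 against 215. With only the other 4 libraries, the log2 differences of Zel minus Ghezel described next were -2.42 for MOGAT1, -3.17 for MBOAT2 and 3.80 for LIPG, each in the same direction as with all 7 libraries, and 2 against 2 libraries cannot give an exact permutation p below 0.333.

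MOGAT1 was listed higher in every Ghezel (fat-tailed) library than in any Zel (thin-tailed) library, with fewer than 10 FPKM in all libraries but Ghezel 2. The FPKM was 0.426 in Zel 1 and 0.322 in Zel 2, Zel 3 and Zel 4 were listed at 0, and the Ghezel lambs, numbered 1 to 3, had 2.89, 11.7 and 0.850. The 4 Zel values therefore all lay below the lowest Ghezel value, although the gap between Zel 1 and Ghezel 3 was narrow. The values rested on 4.00 and 3.00 implied fragments in Zel 1 and Zel 2, and on 195, 121 and 9.0 fragments in Ghezel 1 to Ghezel 3. For the libraries listed at 0, a floor of 3 fragments per library corresponded to an FPKM of 0.307 in Zel 3 and 0.301 in Zel 4. These floors were worked out from the FPKM of a fragment in Zel 2, so their closeness to the value of Zel 2 follows from its 3.00 fragments. The intervals of Ghezel 3, 0.283 to 1.42, and of Zel 1, 0 to 0.853, overlapped, so the order of these libraries cannot be told at this depth. Ghezel 1 and Ghezel 2, with intervals of 2.48 to 3.31 and 9.56 to 13.8, stood clear of all Zel libraries and of each other.

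The breed means of MOGAT1 were 0.187 ± 0.220 FPKM in Zel (SD, n = 4) and 5.14 ± 5.76 FPKM in Ghezel (SD, n = 3), a ratio of 27.5 between the means, with an SD in Ghezel as large as its mean. On the log2(scaled FPKM + 1) scale, which understates the change of a gene at this level, the difference of Zel minus Ghezel was -1.96 (SE 0.69). The exact permutation test over all 35 splits gave p = 0.0286, two-sided, which is the smallest p that 4 against 3 libraries allow. MOGAT1 met the filter of a mean FPKM of at least 1 through Ghezel alone, and the study had chosen it on these libraries. The p is therefore that of a selected gene. Across all tested loci, limma gave an unadjusted p of 0.0193 and a Benjamini-Hochberg adjusted p of 0.770, so that MOGAT1 did not pass the threshold of 0.05. Of the 8175 loci, 2.57% had all 3 Ghezel above all 4 Zel libraries, and 1.97% had the reverse, so a pattern without overlap such as that of MOGAT1 was shared by 210 loci. Unlike MOGAT1, the loci matched by position had rows of like extent in all libraries. Without Ghezel 2 the difference was -1.16, and without Ghezel 3 it was -2.64, with Ghezel the higher breed both times.

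No locus passed limma at an adjusted p under 0.05 with a log2 fold change beyond 1.1, which is 0% of 8175 loci in the direction of Zel and 0% in the direction of Ghezel. Before adjustment, 120 loci higher in Zel and 180 higher in Ghezel had a limma p under 0.05, and the lowest adjusted p was 0.770. Together these loci were a smaller share of the 8175 than the 0.05 that a p under 0.05 gives without any difference. The median log2 difference over all tested loci was -0.23, with 61.2% of them negative, and under quantile normalization it was 0.01. Relative to those medians, MOGAT1 lay at -1.74 and -1.68, MBOAT2 at -2.20 and -2.13, and LIPG at 1.98 and 2.24.

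MBOAT2 was high in Ghezel 1 and Ghezel 2 and lower in the other 5 libraries, Ghezel 3 among them. In the order of their numbers the Zel lambs had 6.55, 3.95, 0.556 and 3.94 FPKM, and the Ghezel lambs had 46.4, 55.6 and 2.96 FPKM. Ghezel 3 thus lay below 3 of the 4 Zel libraries, and the breeds overlapped. Behind these values stood 329, 215, 17.0 and 301 implied fragments for Zel and 869, 1092 and 199 for Ghezel, so MBOAT2 was the best sampled of the 3 genes in all libraries but Zel 1 and Zel 2. The intervals of Zel 2, 3.41 to 4.49, and Zel 4, 3.48 to 4.39, covered each other. The intervals of all other neighbours in the order of levels did not touch, and the closest approach was between Ghezel 3, with an upper bound of 3.38, and Zel 4.

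The means of MBOAT2 were 3.75 ± 2.46 FPKM in Zel (SD, n = 4) and 34.99 ± 28.1 FPKM in Ghezel (SD, n = 3), a ratio of 9.33. The log2 difference of Zel minus Ghezel was -2.43 (SE 1.02), with an exact permutation p of 0.171, two-sided, and a limma adjusted p of 0.770 (unadjusted p 0.0421). The difference thus passed 0.05 only in limma before adjustment. Among the tested loci, 12.9% shared the arrangement of MBOAT2, with Ghezel 1 and Ghezel 2 above all Zel libraries and Ghezel 3 below the highest Zel library. Without Ghezel 3 the difference was -3.73 and the limma adjusted p was 0.303, and without Ghezel 2 the difference was -1.67.

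LIPG was high in 1 lamb. Taken by number, the Zel lambs had 5.31, 117, 0 and 0.0373 FPKM and the Ghezel lambs had 1.83, 0.326 and 0 FPKM. Zel 2 stood far above the other 6 libraries, and the remaining Zel and Ghezel libraries overlapped. These values rested on 344, 2182, 0 and 1.99 implied fragments for Zel and on 68.9, 21.0 and 0 for Ghezel. A floor of 3 fragments per library corresponded to an FPKM of 0.0571 in Zel 3 and 0.0561 in Ghezel 3, and the value in Zel 4 lay below that floor too. In descending order the intervals of Zel 2, Zel 1, Ghezel 1 and Ghezel 2 were 112 to 122, 4.74 to 5.88, 1.39 to 2.27 and 0.184 to 0.468, and none of them overlapped.

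The means of LIPG were 30.5 ± 57.5 FPKM in Zel (SD, n = 4) and 0.718 ± 0.975 FPKM in Ghezel (SD, n = 3), a ratio of 42.5 with an SD above the mean in each breed. The medians were 2.67 and 0.326 FPKM. LIPG met the filter of a mean FPKM of at least 1 through Zel alone. The log2 difference of Zel minus Ghezel was 1.75 (SE 1.56), the exact permutation p was 0.514, two-sided, and the limma adjusted p was 0.770. Without Zel 2 the difference was 0.21 (SE 0.78), with an exact permutation p of 0.90 for 3 against 3 libraries, a design whose smallest p is 0.1. On the log2(scaled FPKM + 1) scale, Zel 2 exceeded the next library by 4.50, and 58 of the 8175 loci, or 0.709%, had a gap at least as large between their highest library and the next. Of these 58 loci, 28 had their highest value in Zel 2. Over all tested loci, the highest library was Zel 2 in 17.2%.

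**Figure D1:**
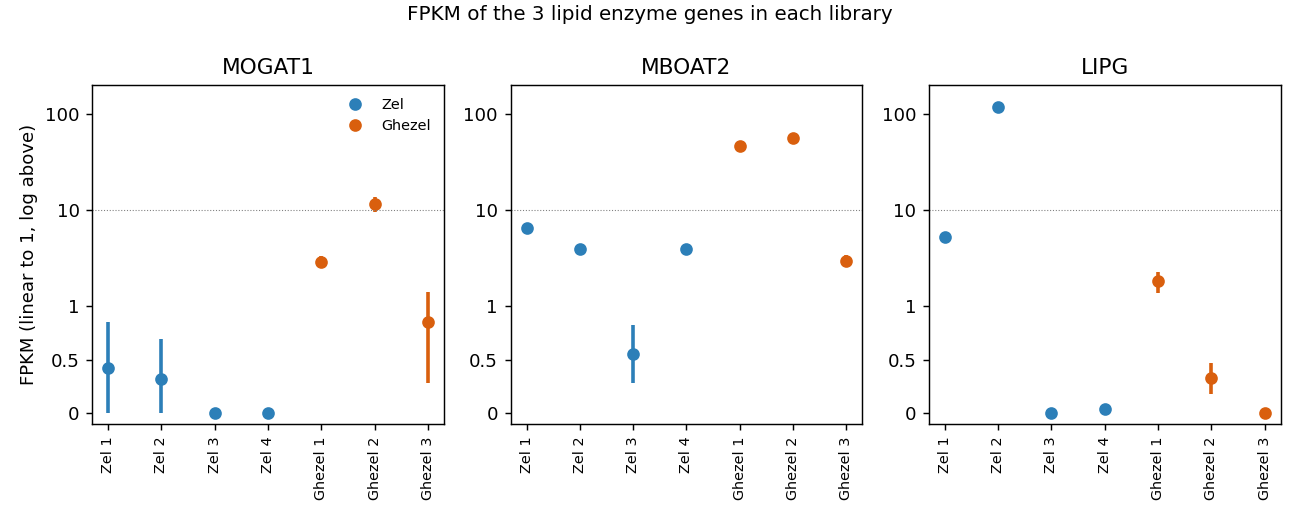
FPKM of MOGAT1, MBOAT2 and LIPG (vertical axis, linear up to 1 and logarithmic above) in each of the 7 libraries (horizontal axis), with Zel in blue and Ghezel in orange. Vertical bars are the confidence intervals of the tables and the dotted line marks 10 FPKM. The Ghezel libraries lie above the Zel libraries for MOGAT1, Ghezel 3 falls among the Zel libraries for MBOAT2, and Zel 2 stands alone at 117 FPKM for LIPG.

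Part of the distance between libraries in FPKM went with the rows that the assembly had formed at each gene. At MOGAT1 the row equalled the annotated gene in the 4 Zel libraries and in Ghezel 3. In Ghezel 1 it spanned 223841328-223876908, which is 13906 bases more on the lower side and 5348 bases more on the upper side of the gene. In Ghezel 2 it spanned 223841327-223881444, with 13907 and 9884 bases more. The other 5 libraries had separate short rows just past the upper end of the gene, 8 rows in all, and their outermost ends lay between 223876855 and 223876907, just short of the end of the long row of Ghezel 1. A region that was counted with the gene in Ghezel 1 and Ghezel 2 was thus listed apart from it in the other libraries.

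Counted over the widest stretch that any library's row covered, 40118 bases, the implied fragments at MOGAT1 were 82.0, 14.9, 44.3 and 28.0 for the Zel lambs by number, and 195, 121 and 115 for the Ghezel lambs. The separate rows held 95.1% and 79.9% of these fragments in Zel 1 and Zel 2, 100% in Zel 3 and Zel 4 and 92.2% in Ghezel 3. Zel 3 and Zel 4, listed at 0 in FPKM for the gene itself, thus had fragments next to it. Expressed as FPM, the implied fragments for each 1000000 implied fragments of the library, the values were 10.5, 2.04, 5.77 and 3.58 in Zel and 26.3, 16.1 and 14.7 in Ghezel.

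On this count the Ghezel libraries still lay above all Zel libraries, and the distance was smaller. The stretch was that of the row of Ghezel 2, and the separate rows of the other libraries all lay past the upper end of the gene. Its part below the gene could therefore add fragments to Ghezel 1 and Ghezel 2 alone, and the count is no independent check of the order of the breeds. The breed means were 5.47 ± 3.68 (SD, n = 4) and 19.1 ± 6.31 (SD, n = 3) FPM, a ratio of 3.49, against 0.230 ± 0.269 and 14.5 ± 12.7 and a ratio of 63.1 when only the rows overlapping the gene were counted. The exact permutation test on log2(FPM + 1) gave p = 0.0571 for the wide count and p = 0.0286 for the narrow one, both two-sided over 35 splits. By limma the log2 difference for the wide count was -1.76 (SE 0.67), with an adjusted p of 0.742. In FPM over the rows of each locus, which were of like extent for all but MOGAT1, 3.52% of the 8175 loci had all Ghezel above all Zel libraries.

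The worth of a fragment in FPKM, which depends on the length of the assembled transcripts, also differed between libraries. At MOGAT1 it was 0.0148 FPKM in Ghezel 1 and between 0.0945 and 0.107 FPKM in the other 4 libraries with a value above 0. Ghezel 2 was therefore 4.04 times as high as Ghezel 1 in FPKM, while in FPM it was 0.613 times as high.

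At MBOAT2 the rows of Ghezel 1 and Ghezel 2 began at 18213819 and 18213822, 6117 and 6114 bases below the annotated gene. In the other 5 libraries, 7 separate rows covered parts of that stretch, the outermost of which began between 18213820 and 18213888. Zel 3 was the only library whose row carried the reference ID and no assembled extension, and 84.5% of its fragments in the stretch were in the separate rows, against 19.9% to 36.0% in Zel 1, Zel 2, Zel 4 and Ghezel 3. Over the widest stretch, 61600 bases, the Zel lambs had 59.3, 36.6, 14.3 and 60.2 FPM by number, and the Ghezel lambs had 117, 146 and 35.6 FPM. Ghezel 3 then lay below 3 Zel libraries, as it had in FPKM.

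A fragment at MBOAT2 was worth 0.0534 and 0.0509 FPKM in Ghezel 1 and Ghezel 2 and 0.0131 to 0.0327 FPKM in the other 5 libraries. Ghezel 1 exceeded Zel 1, the highest Zel library in FPKM, 7.09 times in FPKM, 2.79 times in FPM of the gene rows and 1.98 times over the widest stretch. For Ghezel 2 the same ratios were 8.48, 3.47 and 2.46. The ratio between the breed means fell from 9.33 in FPKM to 3.43 in FPM and to 2.34 over the widest stretch, with an exact permutation p of 0.257, two-sided, for both counts of fragments.

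**Figure D2:**
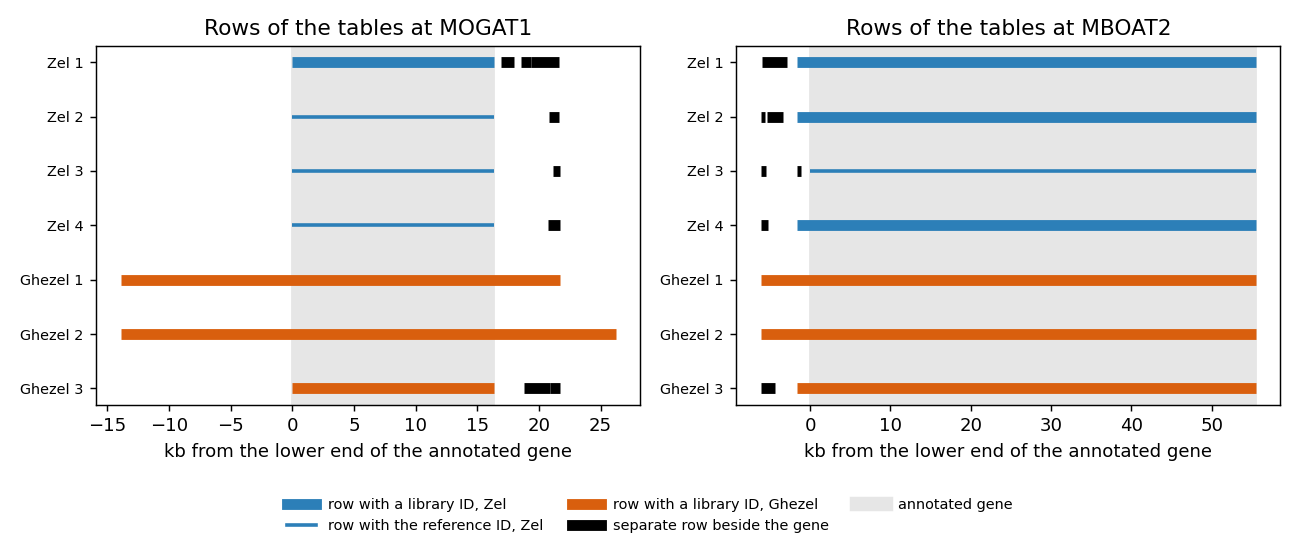
Spans of the rows at MOGAT1 and MBOAT2 in each library, in kilobases from the lower end of the annotated gene (grey). Thick coloured bars are rows with an ID of their own library, thin bars are rows with the reference ID, and black bars are separate rows beside the gene. The rows of Ghezel 1 and Ghezel 2 reach past the gene over the stretch where the other 5 libraries have black bars.

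At LIPG the rows of the libraries differed less, with extensions of at most 1425 bases below and 752 bases above the gene, both in Zel 1. Zel 4 alone had a separate row in that stretch, at 49400014-49400484, with 14.0 implied fragments. Over the widest stretch LIPG stood at 44.0, 299, 0 and 2.05 FPM for Zel and at 9.28, 2.80 and 0 FPM for Ghezel. A fragment was worth 0.0535 FPKM in Zel 2 and 0.0154 FPKM in Zel 1. Zel 2 was 22.0 times as high as Zel 1 in FPKM and 6.79 times as high in FPM, and it was the highest library on both. The ratio of the breed means, Zel over Ghezel, was 42.5 in FPKM and 21.3 in FPM of the gene rows.

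**Figure D3:**
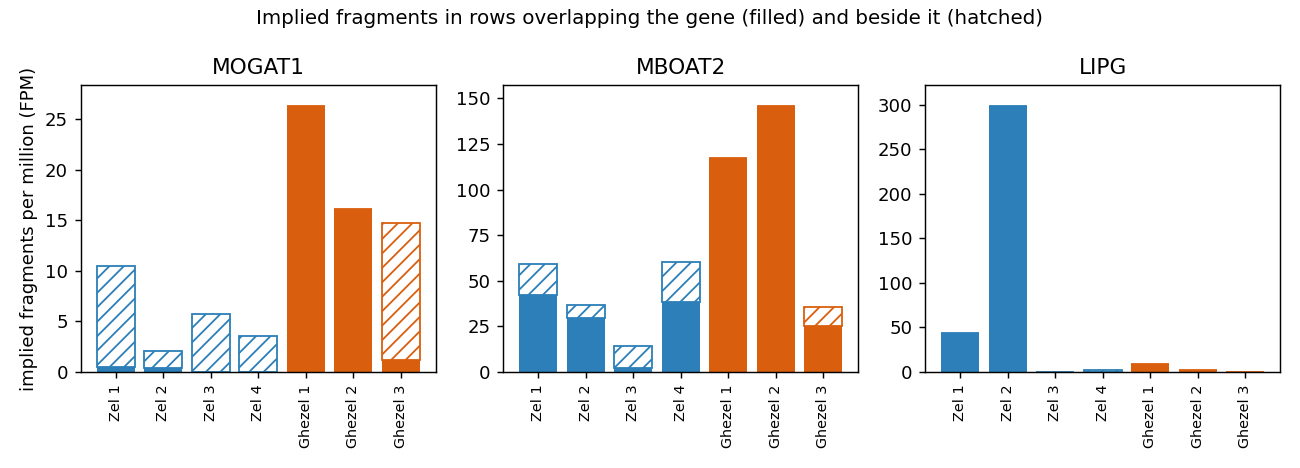
Implied fragments in FPM (vertical axis, linear from 0) at each gene in the 7 libraries (horizontal axis), in Zel (blue) and Ghezel (orange). Filled bars count the rows that overlap the gene and hatched bars the separate rows within the widest stretch of any library. For MOGAT1 the hatched part makes up 79.9% to 100% of the bar in the Zel libraries and 92.2% in Ghezel 3, and the 3 Ghezel bars are the tallest.

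Within a library the acyltransferases can be set against the lipase without a scaling factor. The worth of a fragment in FPKM still differs between genes. In Zel 2, LIPG exceeded MOGAT1 362 times and MBOAT2 29.5 times in FPKM, with MOGAT1 resting on 3.00 implied fragments. In FPM of the gene rows, Zel 2 had 299 for LIPG, 29.4 for MBOAT2 and 0.411 for MOGAT1. In Ghezel 2 the order was the reverse, with MBOAT2 at 170 times and MOGAT1 at 35.9 times the FPKM of LIPG, which rested on 21.0 implied fragments. In FPM of the gene rows, Ghezel 2 had 146 for MBOAT2, 16.1 for MOGAT1 and 2.80 for LIPG. Zel 2 was the only library in which LIPG had more FPKM than MBOAT2, so this order did not divide the breeds. In Zel 1, MBOAT2 had 1.23 times the FPKM of LIPG, while in FPM of the gene rows it had 42.0 against 44.0 for LIPG. In Zel 4, MBOAT2 had 3.94 FPKM against a LIPG value that rested on 1.99 implied fragments. Over the widest stretch of each gene, Zel 4 had 60.2 FPM for MBOAT2 against 2.05 for LIPG.

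As a log2 ratio of (FPKM + 1), MOGAT1 against LIPG was -2.14, -6.48, 0 and -0.05 for Zel by number, and 0.46, 3.26 and 0.89 for Ghezel. All Ghezel ratios were above all Zel ratios, with means of -2.17 ± 3.04 (SD, n = 4) and 1.54 ± 1.51 (SD, n = 3). In Zel 3 both genes were listed at 0, in Zel 4 MOGAT1 was and in Ghezel 3 LIPG was, so these ratios are set in part by the pseudocount of 1. The same lack of overlap in the ratio to LIPG was found for 1656 loci, or 20.3% of those tested, and is therefore no result about MOGAT1.

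MBOAT2 against LIPG stood at log2 ratios of 0.26, -4.57, 0.64 and 2.25 for Zel and of 4.07, 5.41 and 1.99 for Ghezel. The breeds overlapped, and which libraries did so turned with the pseudocount, since LIPG was at 0 or near it in Zel 3, Zel 4 and Ghezel 3. With a pseudocount of 1, Zel 4 lay above Ghezel 3. With a pseudocount of 0.1, Zel 4 at 4.88 lay below Ghezel 3 at 4.94 and above Ghezel 1 at 4.59. The means were -0.36 ± 2.94 (SD, n = 4) and 3.82 ± 1.73 (SD, n = 3). Without Zel 2, the differences of Zel minus Ghezel in these log2 ratios went from -3.70 to -2.27 for MOGAT1 and from -4.18 to -2.77 for MBOAT2. The ratios are descriptions and were not tested, since the 3 genes were chosen with their levels known.

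**Figure D4:**
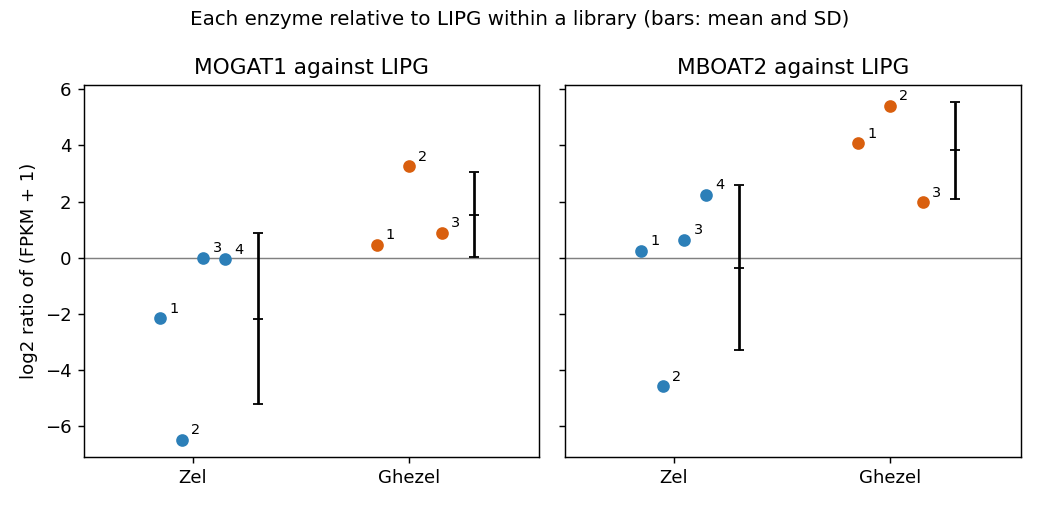
Log2 ratio of (FPKM + 1) of MOGAT1 (left) and MBOAT2 (right) to LIPG in each Zel (blue) and Ghezel (orange) library, labelled by library number, with the mean and SD of each breed in black. Zel 2 is lowest in both panels, at -6.48 and -4.57, and Ghezel 2 is highest, at 3.26 and 5.41.

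Over the 7 libraries, the log2(scaled FPKM + 1) levels of MOGAT1 and MBOAT2 ran together, with a Pearson r of 0.89 and a Spearman rho of 0.76. LIPG followed neither by Pearson r, at -0.16 with MOGAT1 and -0.01 with MBOAT2, and its rho with MBOAT2 was 0.63. These are descriptions over 7 libraries that share the breed difference and the differing assemblies. Among the 3044 other tested loci that carry a reference ID, the profile most like that of MOGAT1 was ENSOARG00000012794 on chromosome 24 (r = 0.98). The most like that of MBOAT2 was ENSOARG00000025709 on chromosome 17 (r = 0.97), and the third was TNFRSF9 (ENSOARG00000010196), a receptor of activated lymphocytes (r = 0.97). ENSOARG00000011649 on chromosome 3 was most like LIPG (r = 0.99), with 34.1 FPKM in Zel 2 and 3.56 to 11.8 FPKM in the other libraries. The tables pair none of these IDs with a symbol, and the symbol of TNFRSF9 is the pairing the study gives.

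Within 250 kb of the genes lay 2 tested loci at MOGAT1, 3 at MBOAT2 and 3 at LIPG. None of them had breeds without overlap, and none passed limma's adjusted threshold. Their log2 differences of Zel minus Ghezel ran from -0.01 to 0.57 at MOGAT1, from -1.31 to 0.08 at MBOAT2 and from -0.51 to 0.22 at LIPG. In RefSeq's gene order, in the assembly ARS-UI_Ramb_v3.0, the nearest named protein-coding genes are FARSB and ACSL3 for MOGAT1, KIDINS220 and ASAP2 for MBOAT2, and C23H18orf32 and ACAA2 for LIPG. ACSL3 encodes an enzyme that activates long-chain fatty acids and ACAA2 encodes an enzyme of mitochondrial fatty acid oxidation, so MOGAT1 and LIPG each have another gene of lipid metabolism beside them in that assembly.

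Other genes of the same pathways could not be placed. Of 38 genes in 2 lists, 26 of glycerolipid synthesis and remodelling and 12 lipases with their cofactors, 0 could be placed in the tables, which carry no gene symbols. None of the 19205 reference IDs in the tables was among the Ensembl IDs of the RefSeq table. The same held for 29 markers of adipocytes, endothelium, macrophages, skeletal muscle and fibroblasts, so the tissue label was not checked against marker genes here. LIPG is made by endothelial cells, and the part of vessel content in its levels was not tested.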

How the data were processed

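RNA-seq libraries of tail fat from 4 Zel (thin-tailed) and 3 Ghezel (fat-tailed) lambs were compared, with 1 library per lamb, so p-values measure the spread between these lambs. The labels' notes name FastQC, TopHat, Cuffdiff and Oar_v3.1, whereas the study's methods name the sheep genome v4.0, and no source used here gives the annotation release. For each library the authors deposited a Cufflinks table of FPKM, normalized by them for transcript length and mapped fragments, with confidence bounds. Because these are not counts, no count model was run. A row's implied fragments are the square of 2 times its FPKM divided by the distance from FPKM to the upper bound. Of the rows under 200 implied fragments, 34.2% to 37.7% per library were whole within 0.02. Most of these rows were not whole, so an interval can hold more than counting error, and its implied fragments can be fewer than those counted. Whether that shortfall differed between the assemblies was not tested, and FPM is therefore not a direct count. Floors cover counting error only, and neither intervals nor floors cover the spread between lambs. A library's value for a gene is the sum of FPKM over all rows that overlap it. A transcript extending past the annotation is counted in full, and fragments assembled into a separate row are not.

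Other loci were matched by reciprocal best overlap of at least 0.8 of the longer span in all 7 tables. This gave 22094 loci, of which 3 with a status other than OK were left out. A further 3 that overlapped the genes described were taken out, and the values of the 3 genes were put in. The gene-size rows of MOGAT1 differed too much in extent between libraries to be matched in this way. Values were divided by size factors, medians of the ratio to the geometric mean of a locus, taken over 4829 loci of at least 1 FPKM in every library (0.888 to 1.15), filtered at a mean FPKM of 1, and compared on log2(scaled FPKM + 1) with limma 3.58.1 (trend, Benjamini-Hochberg) in R 4.3.3. The thresholds of adjusted p 0.05 and log2 fold change 1.1 are those of the study. The fit was tested on simulated data. Exact permutation tests used all 35 splits. Genes, gene lists and tests were chosen with earlier results of these data known. Besides the 3 genes, the 3 loci with a reference ID whose levels had the highest Pearson r with each of them were to be named, of which those printed are the most alike and the only other one with a symbol.

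Deviations from the breed means correlated at 0.26, 0.14 and 0.30 between libraries with the same number in both breeds, for numbers 1 to 3. Lambs are numbered here as in the labels, and by the numbers of expressed genes the study's text appears to exchange Zel 1 and Zel 2 and to put Ghezel 3 ahead of Ghezel 1 and Ghezel 2. The labels do not say what a number stands for, and libraries of different numbers correlated as much (0.29 for Zel 2 and Ghezel 1, 0.27 for Zel 4 and Ghezel 3). Zel 1 and Zel 2 correlated negatively with Ghezel 3, at -0.30 and -0.29. Zel 3 and Zel 4 correlated negatively with Ghezel 1 and Ghezel 2, at -0.27 to -0.14. The sign thus went with the split between libraries of shorter and longer assembled rows, and no pairing by number can be read from it.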

Additional observations from a re-analysis of the deposited data

Results flagged for a closer look

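LIPG in Zel 2 stood apart from the other 3 Zel lambs. The gap between Zel 2 and the next Zel library took up 0.955 of the range of the 4 Zel libraries in FPKM and 0.842 of it in implied fragments. Both lay above Dixon's critical value for 4 samples, which chance passes in about 1 of 20 groups. That rate holds for normally distributed values and a single check, whereas several checks were made here on unlogged values. On the log2(scaled FPKM + 1) scale the gap was 0.640 of the range and did not pass. MOGAT1, MBOAT2 and their ratios to LIPG did not pass in Zel, with at most 0.748 of the range, for MBOAT2 on the log2 scale.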

How the results depend on the processing

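The log2 differences of MOGAT1, MBOAT2 and LIPG kept their direction under all 18 alternatives each and passed the adjusted threshold under none, with adjusted p from 0.327 to 1 for MOGAT1, from 0.145 to 1 for MBOAT2 and from 0.347 to 1 for LIPG by limma. They ranged from -3.89 (pseudocount 0.1) to -1.16 for MOGAT1, from -3.73 to -1.17 for MBOAT2 and from 0.21 to 4.13 for LIPG. Of the 18, taking only the row of the largest overlap could not change a value, since the short feature within MOGAT1 was at 0. Leaving out 1 library at a time gave -2.64 to -1.16, -3.73 to -1.67 and 0.21 to 2.55. With the replicate block the differences were -1.89, -2.50 and 2.54, and the block changed no call. The count of called loci, 0, was 1 with array weights and 1 without Zel 3 and Zel 4, ran from 0 to 9 over the libraries left out 1 at a time, with 9 without Ghezel 3, and was 4 without Zel 3, Zel 4 and Ghezel 3; the cause was not tested. That last setting and the wide count of fragments were chosen after seeing the data. Without those 3 libraries MBOAT2 against LIPG went from -4.18 to -6.90, by more than the SD of 2.53 pooled over both breeds, and no other ratio setting moved by more than its pooled SD. Leaving out 1 library at a time gave -4.43 to -2.27 for MOGAT1 against LIPG and -5.10 to -2.77 for MBOAT2 against LIPG. Depth limits MOGAT1, with 0 to 4.00 implied fragments in each Zel library, and LIPG in Zel 3, Zel 4 and Ghezel 3.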
